A study of Mus musculus with 24 samples.

Results

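The mitochondrial ribosomal protein genes of the mouse are described here as all symbols of the count table that start with Mrps or Mrpl and a digit. The rule found 77 genes of 24421, and it used names only, not measured values. By textbook assignment 50 of the products belong to the large subunit and 26 to the small subunit of the mitochondrial ribosome. The product of Mrps36 is a part of the oxoglutarate dehydrogenase complex instead, and those of Mrps18a and Mrps30 sit in the large subunit in spite of their symbols. All 77 passed the expression filter, and the lowest count of any of them in any library was 62.

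The mitochondrial ribosome works in the mitochondrial matrix and translates the few mRNAs that mitochondrial DNA encodes, all of them for core subunits of the oxidative phosphorylation complexes. Its RNA comes from the mitochondrial genome, whereas its proteins are encoded in the nucleus, made by cytosolic ribosomes and imported. Compared with its bacterial relatives it has gained many proteins that bacteria lack, and cells cannot maintain oxidative phosphorylation without it.

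RNA was sequenced from 3 B cell populations of the bone marrow, labelled proBpreB, immature and mature, each taken from 4 mice per genotype, so that 8 mice gave 24 libraries. Mice of both genotypes carried MB1 Cre on 1 allele (MB1 Cre +/WT), which expresses a recombinase in B lineage cells from the pro-B stage. They had either both copies of Vhl flanked by lox sites (VHL flox/flox) or 1 such copy and a wild-type copy (VHL flox/WT), so the control cells can themselves lose 1 Vhl allele and no mouse without Cre was included. Vhl is the substrate receptor of a ubiquitin ligase that marks the alpha subunits of hypoxia-inducible factors for degradation. The labels give neither the age of the mice nor the sorting markers.

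Library totals ran from 7850186 to 11863949 counts. Vhl, counted over the whole gene, was lower in every flox/flox library than in every flox/WT library of the same population, with means of 10.2 ± 3.37 against 25.3 ± 2.02 CPM (counts scaled to a common library size; SD, n = 4) in proBpreB, 5.58 ± 2.31 against 35.5 ± 8.88 in immature and 7.60 ± 1.90 against 29.1 ± 2.81 in mature cells. A two-sided exact permutation test gave p = 0.0286 in each, the smallest p that 4 against 4 allows. By mean level, Rag1 and Igll1, which act in early B cell development, were highest in proBpreB and Fcer2a, the surface marker CD23, in mature cells. H2-Aa was highest in mature cells too. Ms4a1, also listed as a mature B cell marker, was instead highest in immature cells of both genotypes. Its means were 5097 CPM in immature against 2363 CPM in mature flox/WT cells, and 5045 against 1812 CPM in flox/flox cells. The sorts were not pure by RNA: 9 neutrophil and monocyte markers summed to between 3858 and 5748 CPM in proBpreB flox/WT libraries and to between 11168 and 17486 CPM in mature flox/WT libraries, and none of them was at 0 in any group. The proBpreB flox/WT replicates 3 and 4 stood apart from replicates 1 and 2: 25 proliferation genes summed to 6840 and 6215 CPM against 8901 and 8971 CPM, and 84 cytosolic ribosomal protein genes to 25245 and 22119 CPM against 17592 and 17250 CPM. Many counts and leading changes against proBpreB flox/WT are therefore also given without these 2 libraries, a choice made after seeing the data. In bulk RNA, fewer cells of a type and less RNA per cell cannot be told apart.

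The genes lay on 17 chromosomes, and 18 of the 77 (23.4%) started head to head with another gene, within 1000 bases on the opposite strand, against 6.72% of 19927 protein-coding genes in the table. Such neighbours were Fau for Mrpl49 at 59 bases, Ska3 for Mrpl57 at 49 bases, Apba3 for Mrpl54 at 26 bases and Ppp1r10 for Mrps18b at 45 bases. RefSeq promoter sequences (GRCm38.p6, 250 bases before to 50 bases after the start) were at hand for 68 of the 77, and their median GC content was 58.2% against 52.7% for all 27025 promoters. The 250 bases before the start are shown for 4 members: Mrpl43 and Mrpl57, whose genotype difference differed between populations in tests with all libraries, Mrpl49, which changed most between stages, and Mrpl12, which was lower in flox/flox immature cells. Capitals mark, on either strand, the letters bound by nuclear respiratory factor 1 (NRF1), which are GCGCA, any base, then GCGC, and the ETS letters CCGGAAG, the motif family of GABP; the Mrpl49 window holds neither. The windows are chr19:45006443-45006692 on the minus strand for Mrpl43, chr14:57825989-57826238 on the plus strand for Mrpl57, chr19:6057756-6058005 on the minus strand for Mrpl49 and chr11:120484387-120484636 on the plus strand for Mrpl12.
Mrpl43: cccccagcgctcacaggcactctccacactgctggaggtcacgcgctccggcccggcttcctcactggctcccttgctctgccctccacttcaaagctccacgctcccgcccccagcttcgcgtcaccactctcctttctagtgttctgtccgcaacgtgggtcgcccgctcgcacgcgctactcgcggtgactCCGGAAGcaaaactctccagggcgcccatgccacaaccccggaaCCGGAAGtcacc
Mrpl57: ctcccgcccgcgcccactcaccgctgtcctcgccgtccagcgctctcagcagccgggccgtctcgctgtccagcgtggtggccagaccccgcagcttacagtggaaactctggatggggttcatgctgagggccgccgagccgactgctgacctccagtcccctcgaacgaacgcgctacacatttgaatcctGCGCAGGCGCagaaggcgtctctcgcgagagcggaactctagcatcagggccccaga
Mrpl49: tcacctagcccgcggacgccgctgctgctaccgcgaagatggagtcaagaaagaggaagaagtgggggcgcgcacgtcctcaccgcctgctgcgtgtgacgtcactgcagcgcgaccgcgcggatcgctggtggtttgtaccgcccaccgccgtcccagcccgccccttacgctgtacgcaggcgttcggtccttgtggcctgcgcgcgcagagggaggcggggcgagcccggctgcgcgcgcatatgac
Mrpl12: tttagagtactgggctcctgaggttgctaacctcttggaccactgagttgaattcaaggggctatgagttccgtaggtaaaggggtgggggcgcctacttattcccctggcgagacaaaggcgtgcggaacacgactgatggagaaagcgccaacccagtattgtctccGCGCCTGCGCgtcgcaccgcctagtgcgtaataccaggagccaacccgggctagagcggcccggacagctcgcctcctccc

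The ETS letters were found in 35.3% of the 68 member promoters and in 9.12% of all promoters. The NRF1 letters stood in 19.1% against 4.78%, and AAGATGGC, the letters bound by YY1, in 17.6% against 2.88%. The letters read by Myc and Max, CACGTG, stood in 7.35% of member promoters and 7.24% of all promoters. Of the hypoxia-inducible factor core letters, ACGTG, which lies inside CACGTG, stood in 22.1% against 19.7%, and GCGTG, whose reverse CACGC can overlap the NRF1 letters, in 54.4% against 32.5%. All letters were searched on both strands of the 300 bases. A match describes the letters only, and the higher GC content of the member promoters moves with the GC-rich ones; its part was not tested.

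Per kilobase of exon, members spanned a wide range of levels. Over all 24 libraries the highest mean levels were those of Mrpl33 (131 CPM per kb), Mrps21 (128 CPM per kb) and Mrpl42 (106 CPM per kb). Mrpl47 (4.98 CPM per kb), Mrps5 (7.19 CPM per kb) and Mrpl48 (7.57 CPM per kb) were lowest, and the median member stood at 32.2 CPM per kb. The lengths count all annotated exons, so genes with long annotated ends read low on this scale.

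In flox/WT mice the members were on balance lowest in mature cells, and with all libraries highest in proBpreB cells. Summed over the 77 genes, the level was 4009, 3977, 5015 and 4707 CPM in proBpreB replicates 1 to 4, 4389, 3991, 3639 and 3929 CPM in immature and 3533, 3661, 3693 and 3551 CPM in mature cells. Every mature library lay below every proBpreB library, whereas the immature libraries overlapped both other groups. In flox/flox mice the sums were 3973, 3885, 3764 and 3927 CPM in proBpreB, 3925, 4088, 3495 and 3717 CPM in immature and 3206, 3789, 3105 and 3189 CPM in mature cells, where replicate 2 of the mature cells overlapped the proBpreB libraries. The large subunit made up most of the sum, with 3008 ± 351 CPM against 2421 ± 45.4 CPM (SD, n = 4) in proBpreB and mature flox/WT cells, and the small subunit stood at 1372 ± 162 against 1156 ± 33.1 CPM. These sums are descriptions with no test. By mean level in flox/WT mice, proBpreB was the highest stage for 50 of 77 members (64.9%) against 40.7% of all genes tested, and mature the lowest for 49 (63.6%) against 34.3%. Without proBpreB flox/WT replicates 3 and 4, proBpreB was the highest stage for 35 members (45.5%) against 40.1% of all genes, and mature the lowest for 42 (54.5%) against 35.0%. In flox/flox mice the figures were 43 of 77 (55.8%) against 40.4% and 45 of 77 (58.4%) against 31.1%.

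**Figure D1:**
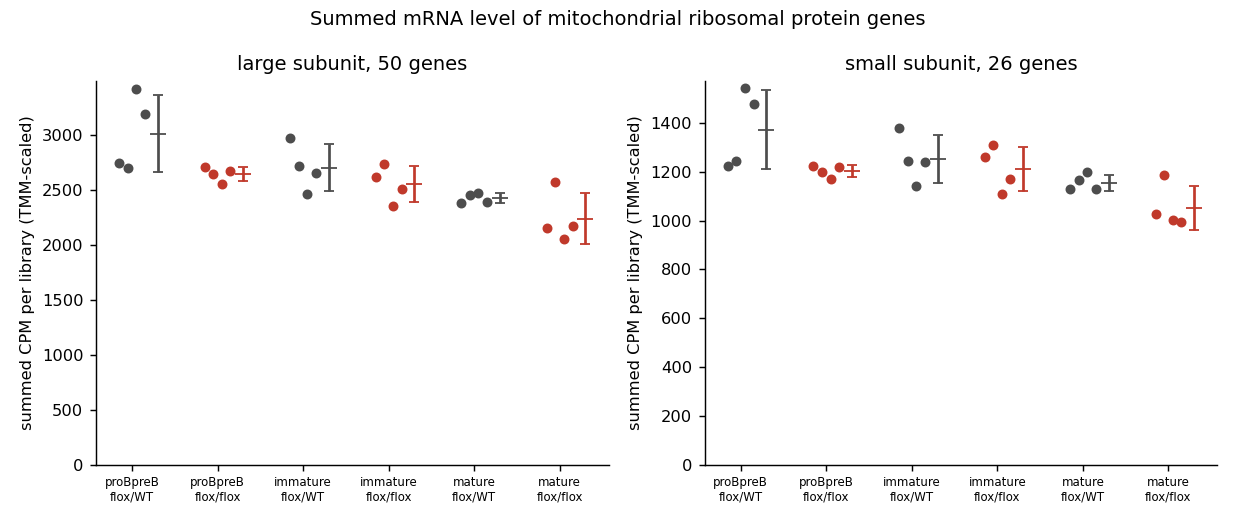
Summed level of the large-subunit genes (left, 50 genes) and small-subunit genes (right, 26 genes) in each library, in CPM with TMM-scaled library sizes; grey points are flox/WT and red points flox/flox libraries, and the bar beside them is the mean with SD (n = 4). The mature flox/WT libraries lie below all proBpreB flox/WT libraries in both panels, and proBpreB flox/WT replicates 3 and 4 are the 2 highest of their group.

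Between mature and proBpreB flox/WT cells, 42 of 77 members passed edgeR's quasi-likelihood test at a Benjamini-Hochberg adjusted p below 0.05, here termed called. Of these, 37 (48.1%) were lower and 5 (6.49%) higher in mature cells, whereas 58.8% of all 12850 genes tested were called, 29.6% lower and 29.2% higher. The median log2 change was -0.26 for the members and 0.0079 for all genes tested. Large-subunit genes made up 23 of the lower calls and 2 of the higher, and small-subunit genes 13 and 3. Among the 21 large-subunit genes with no counterpart in the bacterial large subunit, Mrps18a included, none was higher and 11 were lower, and 6 were lower without replicates 3 and 4. The remaining lower calls of the large subunit, and its 2 higher calls, were among the 29 genes with a bacterial counterpart. Lower calls were thus not particular to either class. Without proBpreB flox/WT replicates 3 and 4, 18 members were lower, all 18 among the 37, and 5 were higher, and the member median was -0.10. The shares of all genes in that reduced fit are not given here, so whether the lower calls still exceed them is not shown.

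Mrpl49, a large-subunit protein that bacteria lack (ENSMUSG00000007338.10, chr19:6053622-6057785, minus strand), had the largest change. Its level was 118, 109, 118 and 123 CPM in proBpreB flox/WT replicates 1 to 4, 52.4, 62.9, 65.5 and 64.6 CPM in immature and 50.9, 49.1, 46.4 and 54.7 CPM in mature cells. All proBpreB libraries were far above the others, which overlapped each other at the edge. The fall from proBpreB to mature was -1.22 (log2, SE 0.11, edgeR adjusted p = 5.1e-11), and -1.18 without replicates 3 and 4. Mrpl57, whose small product sits in the large subunit, fell by 1.16 on the log2 scale (SE 0.17), from 66.1, 75.8, 101.7 and 98.4 CPM to 36.9, 29.1, 46.7 and 40.1 CPM. The ranges did not overlap, and the fall was 0.89 without replicates 3 and 4. Mrpl28, a large-subunit protein with a bacterial counterpart, went from 113.2, 112.8, 154 and 135 CPM to 65.1, 62.9, 78.8 and 60.4 CPM, again without overlap (log2 change -0.95, SE 0.13, and -0.76 without replicates 3 and 4). The other large falls were those of Mrpl53 (-0.95, SE 0.17), Mrpl18 (-0.87, SE 0.11), which binds the structural RNA of the central protuberance, Mrpl13 (-0.86, SE 0.14), Mrps18a (-0.84, SE 0.13) and Mrpl27 (-0.81, SE 0.13), and all 5 passed without replicates 3 and 4 too, with Mrpl53 at -0.58 and Mrpl13 at -0.52. Reads of Mrpl13 and Mrpl18 may in part belong to the antisense genes Mtbp and Tcp1, which share 20.4% and 11.6% of their exon bases, since the sources used here do not say whether strand was counted.

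The 5 members that rose to mature cells were Mrps18b (0.62, SE 0.10), Mrps16 (0.41, SE 0.14), Mrps15 (0.40, SE 0.12), Mrpl10 (0.33, SE 0.10), part of the stalk that recruits translation factors, and Mrpl4 (0.26, SE 0.10), which lines the exit tunnel. Without replicates 3 and 4 the change of Mrps16 was 0.72 and Mrpl4 was not called (adjusted p = 0.0863). With library totals in place of TMM factors the median of all genes itself moved by -0.28, and Mrps18b alone of the 5 passed, while Mrpl4 turned to -0.03 (adjusted p = 0.821). The 3 Mrps18 genes are relatives of 1 bacterial small-subunit protein, and they did not move together. Mrps18a, in the large subunit, stood at 56.9, 49.8, 70.6 and 63.4 CPM in proBpreB flox/WT and 30.5, 35.0, 32.8 and 35.7 CPM in mature flox/WT libraries. Mrps18b, in the small subunit, went the other way, from 35.1, 31.5, 32.2 and 29.5 CPM to 48.4, 49.6, 46.3 and 52.3 CPM. Neither pair of ranges overlapped, and both were called in either genotype between immature and proBpreB cells, the rise of Mrps18b in flox/flox mice not under library totals (adjusted p = 0.0756). Mrps18c, which takes the place of the bacterial protein, was at 59.6, 53.9, 103.8 and 83.5 CPM and at 48.8, 52.2, 52.8 and 53.0 CPM; its fall of 0.54 (SE 0.16, edgeR adjusted p = 0.0039) did not pass without replicates 3 and 4, the 2 libraries in which it was high. Mrps36 fell by 0.52 (SE 0.16) with overlapping ranges and did not pass without replicates 3 and 4 (adjusted p = 0.0853), and Mrps30 had a log2 change of 0.0012 (adjusted p = 0.995).

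**Figure D2:**
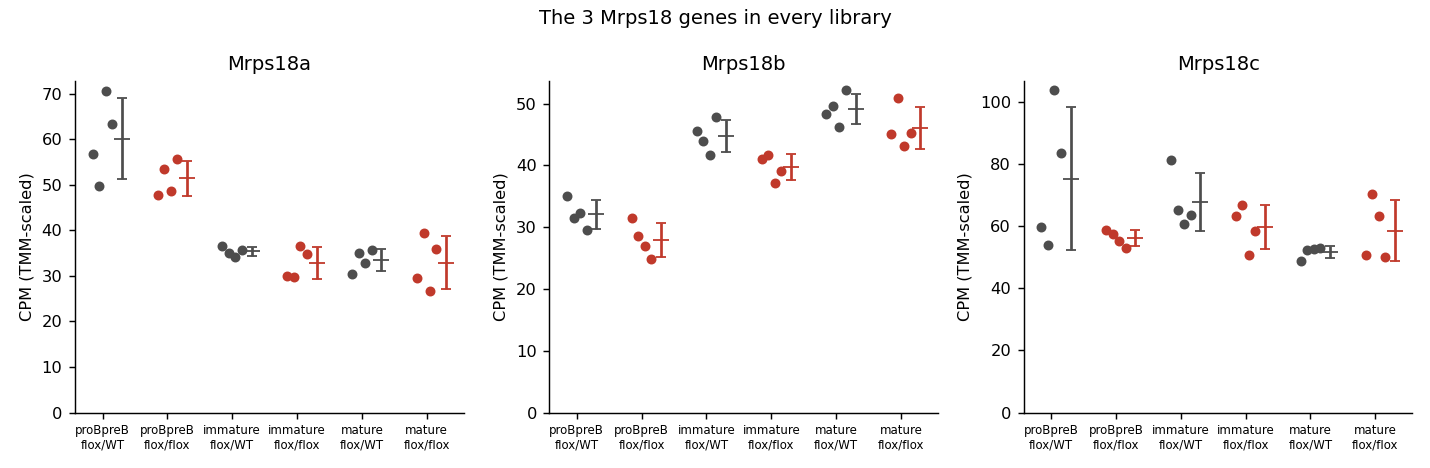
Levels of Mrps18a, Mrps18b and Mrps18c in each library (CPM, TMM-scaled; grey flox/WT, red flox/flox; bar, mean with SD, n = 4). Mrps18a is highest and Mrps18b lowest in the proBpreB libraries of both genotypes, and the high Mrps18c levels of 103.8 and 83.5 CPM are those of proBpreB flox/WT replicates 3 and 4.

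The step from proBpreB to immature cells in flox/WT mice held 28 of the calls, 22 members lower (28.6%) and 6 higher (7.79%), against 49.4% of all genes called, 25.4% lower and 24.0% higher. The member median was -0.15 and the median of all genes -0.0038. Mrpl53 (-0.995, SE 0.17), Mrpl49 (-0.93, SE 0.10), Mrps18a (-0.76, SE 0.13), Mrpl33 (-0.64, SE 0.16) and Mrpl27 (-0.64, SE 0.13) fell most. Those that rose were Mrpl44 (0.62, SE 0.15), a protein with a ribonuclease III fold, Mrps18b (0.48, SE 0.10), Mrpl23 (0.45, SE 0.14), Mrps16 (0.40, SE 0.14), Mrpl45 (0.39, SE 0.15), which holds the ribosome at the inner membrane, and Mrpl10 (0.26, SE 0.10). Without replicates 3 and 4 only 6 members were lower, all 6 among the 22 (Mrpl18, Mrpl27, Mrpl49, Mrpl53, Mrps18a and Mrps9), and 5 were higher, 4 of them among the 6, and the member median was -0.0075. Over all genes 2609 were lower and 2535 higher in that reduced fit, beside 3266 and 3084 with all libraries. The lower calls thus fell by a larger share among the members than over all genes. The change of Mrpl53 was then -0.61, that of Mrps16 0.71, Mrpl33 (-0.13), Mrpl45 (0.27) and Mrpl10 (0.25) were not called, and without replicate 3 alone 13 members were lower and 4 higher. Library totals as scaling gave 41 lower and 2 higher, with the median of all genes at -0.21. The shares of all genes called under that scaling are not given here.

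From immature to mature flox/WT cells 9 members were lower (11.7%) and 1 higher (1.30%), fewer than the 17.1% and 15.6% of all genes (32.7% called in either direction). The fall of Mrpl57 by 0.70 (SE 0.17), Mrpl28 by 0.57 (SE 0.13), Mrps28 by 0.54 (SE 0.14) and Mrpl40 by 0.52 (SE 0.11) was largest, and Mrpl12, Mrpl18, Mrpl37, Mrpl49 and Mrpl51 fell as well. Mrpl11, a protein of the stalk base, was the 1 gene that rose (0.36, SE 0.13, edgeR adjusted p = 0.0389). The member median was -0.14, beside 0.0057 for all genes. Without immature flox/WT replicate 2 or 4 the count was 6, and with library totals 22, in each case with none higher. The shares of all genes called in these fits are not given here.

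In flox/flox mice the step from proBpreB to immature cells had 18 members lower (23.4%) and 11 higher (14.3%), while 27.2% and 28.7% of all genes moved so (55.9% in all), and the member median was -0.05 against 0.02. Under library totals 45 were lower and 1 higher, and the median of all genes was -0.27. The shares of all genes called under that scaling are not given here. Mrpl43 rose by 0.74 (SE 0.11), followed by Mrpl44 (0.61, SE 0.15), Mrps16 (0.59, SE 0.14), Mrps14 (0.57, SE 0.14) and Mrps18b (0.51, SE 0.11). Mrps22 (-0.68, SE 0.15), Mrps9 (-0.67, SE 0.13), Mrpl49 (-0.65, SE 0.10) and Mrps18a (-0.65, SE 0.13) fell most. From immature to mature flox/flox cells 15 members (19.5%) were lower and none higher, against 13.6% and 12.9% of all genes (26.5% in all). Mrpl57 fell by 0.85 (SE 0.16), Mrpl43 by 0.75 (SE 0.11), Mrpl34 by 0.69 (SE 0.12) and Mrps28 by 0.62 (SE 0.14). DESeq2 also called none higher; at an unadjusted p below 0.05 there were 2, Mrps15 and Mrps18b.

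The genotypes shared part of these stage calls. Of the members lower in immature than in proBpreB cells, 9 were called in both genotypes, which is 40.9% of the 22 in flox/WT and 50% of the 18 in flox/flox mice: Mrpl11, Mrpl13, Mrpl18, Mrpl24, Mrpl27, Mrpl49, Mrps18a, Mrps26 and Mrps9. Over all genes the shares were 74.0% and 69.1%. Without proBpreB flox/WT replicates 3 and 4, Mrpl18, Mrpl27, Mrpl49, Mrps18a and Mrps9 were called in both, while Mrpl11, Mrpl13, Mrpl24 and Mrps26 were not. These 5 were 83.3% of the 6 then lower in flox/WT and 27.8% of the 18 in flox/flox mice, against 81.7% and 60.9% over all genes. Mrpl24 shares 38.1% of its exon bases with the antisense gene Rrnad1, so its reads are uncertain. Mrpl23, Mrpl44, Mrps16 and Mrps18b were higher in both, 66.7% of 6 and 36.4% of 11, against 77.5% and 64.8% over all genes, and these 4 were called without replicates 3 and 4 too. Mrpl17 then joined them. The 5 were 100% of the 5 in flox/WT and 45.5% of the 11 in flox/flox mice, against 83.8% and 57.6% over all genes. Mrpl18, Mrpl28, Mrpl49, Mrpl57 and Mrps28 were lower from immature to mature cells in both, 55.6% of 9 and 33.3% of 15, against 44.4% and 55.8% over all genes.

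**Figure D3:**
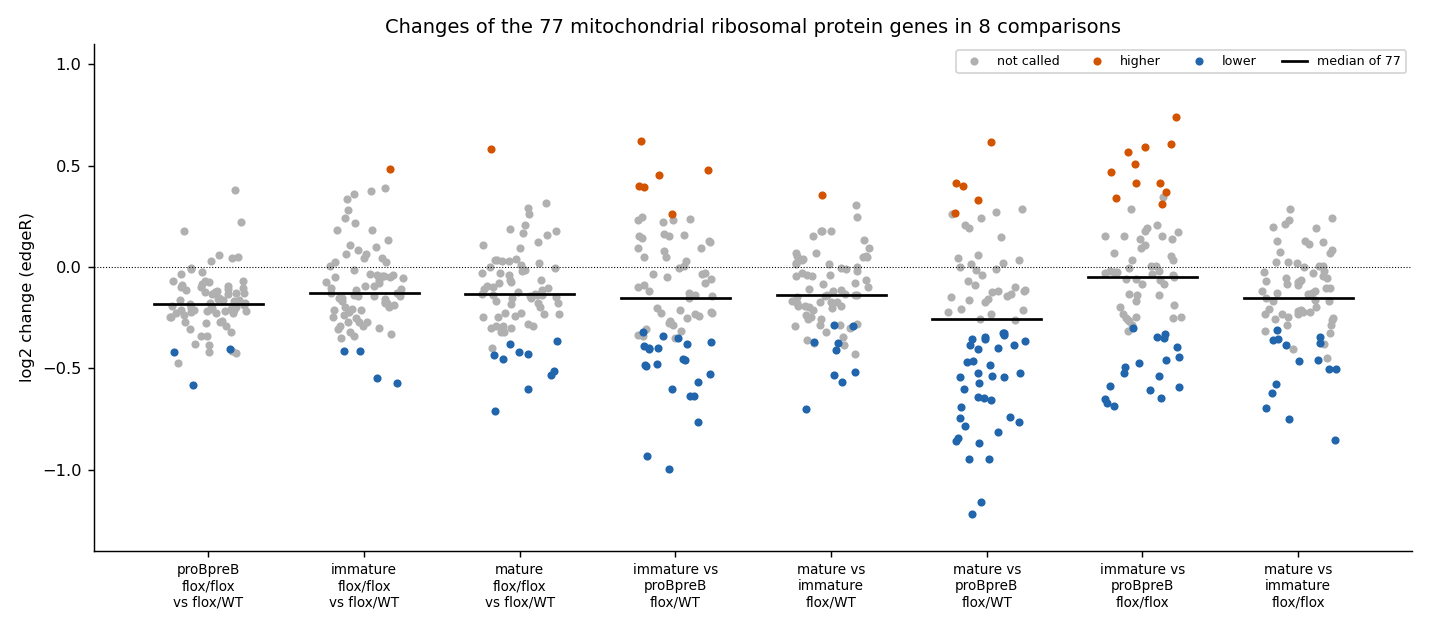
Log2 change of each of the 77 genes (points) in the 3 genotype and 5 stage comparisons, by edgeR; blue and orange points are called lower and higher, grey points are not called, and black lines are medians. Most blue points are in the comparison of mature with proBpreB flox/WT cells (37 genes), and the genotype comparisons hold 3, 4 and 10 blue points.

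Few members differed between the genotypes. In proBpreB cells 3 of 77 (3.90%) were lower in flox/flox mice and none was higher by edgeR's test, against 6.13% of all genes called, 2.75% lower and 3.38% higher. At an unadjusted p below 0.05 there were 18 members of either sign, and DESeq2 called 6, all lower. The log2 change was below 0 for 70 of the 77, with a median of -0.18 beside -0.0024 for all genes. That count of 70 is given with all libraries only. Summed member levels were 4009, 3977, 5015 and 4707 CPM in flox/WT replicates 1 to 4, against 3764 to 3973 CPM in flox/flox libraries. Mrpl22, a protein of the exit tunnel, was at 27.6, 32.5, 47.1 and 34.6 CPM in flox/WT replicates 1 to 4 and at 24.1, 22.7, 23.8 and 24.0 CPM in flox/flox replicates. Its change was -0.58 (SE 0.14, edgeR adjusted p = 0.0098), with no overlap and with the highest value in replicate 3. Mrpl49 stood at 118, 109, 118 and 123 CPM against 95.6, 85.3, 79.0 and 90.6 CPM, also without overlap (log2 change -0.42, SE 0.10, adjusted p = 0.0104). Mrpl43 stood at 81.1, 89.6, 96.5 and 101 CPM against 74.7, 70.9, 64.1 and 68.1 CPM (log2 change -0.41, SE 0.11, adjusted p = 0.0251). The count was 8 without flox/WT replicate 1, 9 without replicate 2 and 1 without replicate 3, all lower. Without flox/WT replicates 3 and 4 none of the 3 passed, with adjusted p of 0.293, 0.110 and 0.309, the member median was -0.03, and Mrpl54 alone was called, at 0.67 (SE 0.18) higher in flox/flox cells (adjusted p = 0.0381).

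In immature cells 4 members (5.19%) were lower and 1 (1.30%) was higher in flox/flox mice, below the 10.5% and 10.2% of all genes (20.7% in all). The medians were -0.13 for members and 0.0034 for all genes. Mrpl12, the stalk protein that is also known to bind the mitochondrial RNA polymerase, was at 71.0, 67.4, 59.4 and 62.8 CPM in flox/WT and 53.2, 43.0, 42.4 and 39.5 CPM in flox/flox libraries, without overlap (log2 change -0.55, SE 0.15, adjusted p = 0.00791). Mrps22, a small-subunit protein that bacteria lack, fell by 0.57 (SE 0.15), from 28.7, 22.4, 22.1 and 20.8 CPM to 14.3, 18.7, 14.4 and 15.8 CPM. Mrpl42 fell by 0.41 (SE 0.11), from a mean of 81.1 ± 6.61 to 60.8 ± 6.02 CPM (SD, n = 4), and Mrpl9 by 0.41 (SE 0.15). The calls for Mrpl9 and Mrpl54 ended under the removal of several single libraries, with adjusted p of up to 0.142 and 0.162. Under library totals 13 members were lower and none higher, and the shares of all genes called in that fit are not given here. The TMM factors left out there were 0.914 to 0.944 in flox/flox and 0.950 to 1.003 in flox/WT libraries. Leaving them out lowers the flox/flox values of all genes relative to flox/WT. Its part in the 13 was not tested. In the same comparison 25 of 25 proliferation genes were lower in flox/flox cells (median -1.48), and 10 erythroid markers summed to between 5384 and 9809 CPM in flox/flox against 1398 to 4206 CPM in flox/WT libraries, while the 9 neutrophil and monocyte markers summed to between 11574 and 15498 against 7907 and 9331 CPM. The part of these shifts in the member values was not tested.

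In mature cells 10 members (13.0%) were lower and 1 (1.30%) was higher in flox/flox mice, against 6.62% and 9.69% of all genes (16.3% in all), with medians of -0.14 and 0.0072. Mrpl11 (ENSMUSG00000024902.5, chr19:4962147-4966999, plus strand) changed most. It stood at 35.9, 36.4, 47.2 and 42.7 CPM in flox/WT and 22.9, 26.9, 20.6 and 28.6 CPM in flox/flox libraries. The groups did not overlap (log2 change -0.71, SE 0.13, edgeR adjusted p = 0.000339). Mrpl4 was at 88.4, 103.1, 86.5 and 86.8 CPM against 65.6, 70.2, 48.6 and 67.4 CPM (-0.54, SE 0.10), and Mrps11, a small-subunit platform protein, at 17.2, 21.1, 16.0 and 21.9 CPM against 13.3, 14.2, 12.0 and 10.6 CPM (-0.60, SE 0.14), again without overlap. Mrpl21 fell by 0.51 (SE 0.13), Mrps16 by 0.45 (SE 0.14), Mrps7 by 0.43 (SE 0.13), Mrps23 by 0.43 (SE 0.11), Mrpl34 by 0.42 (SE 0.12), Mrpl30 by 0.38 (SE 0.11) and Mrpl16 by 0.36 (SE 0.12), with overlapping ranges for Mrpl30 and Mrpl16. Mrps7 shares 12.5% of its exon bases with the antisense genes Gga3 and Mif4gd and is uncertain in the same way. Of the 10 lower members 9 have a bacterial counterpart, the exception being Mrps23, as do 45 of all 77 members (58.4%); this difference was not tested. Fitted on the mature libraries alone, 4 members were lower and 1 higher, and without flox/flox replicate 3, 5 were lower and 1 higher. Erythroid markers summed to between 4130.5 and 10985 CPM in flox/flox and 2045 and 5630 CPM in flox/WT mature libraries, whose ranges overlap, and their part in the result was not tested.

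Mrpl54 (ENSMUSG00000034932.4, chr10:81264713-81266934, minus strand), a large-subunit protein that bacteria lack, was the 1 member called in more than 1 population, and the 1 member called higher in flox/flox cells. Its level was 54.6, 49.5, 43.5 and 49.1 CPM in immature flox/WT and 56.5, 87.5, 60.8 and 70.1 CPM in immature flox/flox replicates 1 to 4. In mature cells it was 39.7, 38.7, 45.2 and 46.9 CPM against 53.9, 87.2, 50.2 and 64.3 CPM. Replicate 2 of the flox/flox mice was the highest in both, and the ranges did not overlap in either. The log2 changes were 0.48 (SE 0.16, adjusted p = 0.0320) and 0.58 (SE 0.16, adjusted p = 0.0131), and without flox/flox replicate 2 the adjusted p was 0.162 in immature and 0.0832 in mature cells. In proBpreB cells, at 53.1, 48.8, 80.2 and 66.8 CPM against 81.4, 85.2, 73.0 and 83.6 CPM, the ranges overlapped through flox/WT replicate 3 and the change of 0.38 was not called.

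Whether the genotype difference itself differed between populations was tested for every gene. Between immature and proBpreB cells 2 members (2.60%) were called, both with a higher difference in immature cells, and none with a lower one, where DESeq2 called 1 and 2 had an unadjusted p below 0.05, against 10.9% of all genes, 4.72% higher and 6.14% lower. Mrpl43 (ENSMUSG00000025208.9, chr19:45004829-45006442, minus strand), a large-subunit protein that bacteria lack, was lower in flox/flox proBpreB cells as given above, but stood at 119, 137, 103.7 and 105.0 CPM in flox/flox and 108, 103.1, 89.2 and 93.0 CPM in flox/WT immature cells. These immature ranges overlapped, and the genotype change of 0.24 in immature cells was not called (edgeR adjusted p = 0.134). The difference of differences was 0.65 (log2, SE 0.16, edgeR adjusted p = 0.00767), and the adjusted p was 0.0692 without proBpreB flox/WT replicates 3 and 4. In mature cells Mrpl43 was at 60.8, 82.2, 63.4 and 69.6 CPM in flox/flox and 85.6, 94.7, 85.8 and 78.3 CPM in flox/WT libraries, overlapping through flox/flox replicate 2, and the genotype difference fell by 0.56 from immature to mature cells (SE 0.16, adjusted p = 0.0264; up to 0.0783 without each of 6 single libraries). It was the only member called there by edgeR (1.30%, against 2.23% of all genes lower, 5.51% higher and 7.74% in all); at an unadjusted p below 0.05 there were 6. Mrpl57 (ENSMUSG00000021967.4, chr14:57826234-57829296, plus strand) was at 71.0, 98.8, 65.0 and 83.7 CPM in flox/flox and 72.1, 62.7, 49.3 and 64.5 CPM in flox/WT immature cells, with overlap. Its genotype difference was 0.75 higher in immature than in proBpreB cells (SE 0.23, adjusted p = 0.0332), and the adjusted p was 0.301 without proBpreB flox/WT replicates 3 and 4 and up to 0.0952 without each of 9 single libraries. Between mature and proBpreB cells Mrpl11 was the 1 member called (1.30% lower, with 0.786% of all genes lower, 2.27% higher and 3.06% in all). Its genotype difference was 0.68 lower in mature cells (-0.68, SE 0.19, adjusted p = 0.0411), and -0.92 without replicates 3 and 4 (adjusted p = 0.00619). The call ended without each of 10 single libraries, with an adjusted p of up to 0.107.

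**Figure D4:**
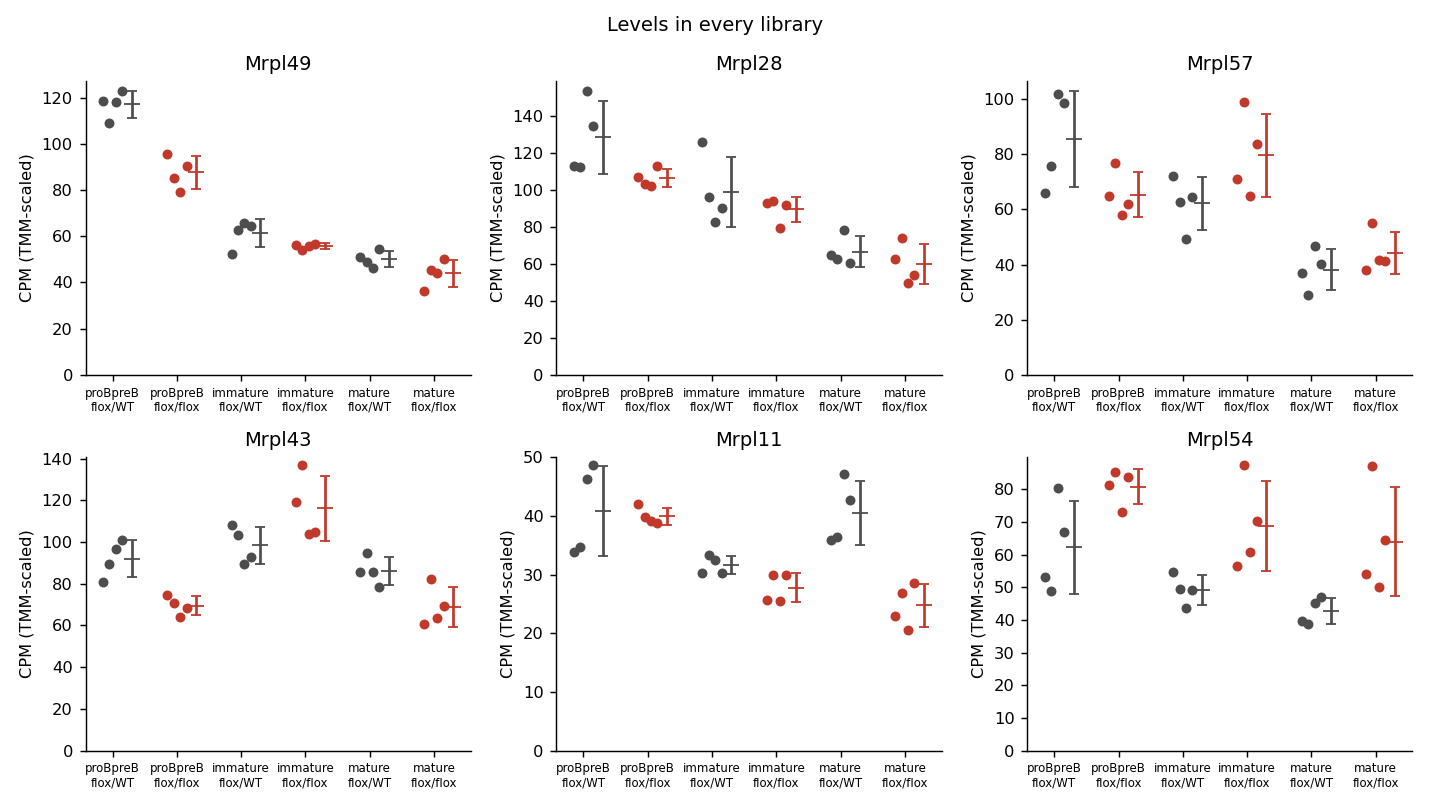
Levels of Mrpl49, Mrpl28, Mrpl57, Mrpl43, Mrpl11 and Mrpl54 in each library (CPM, TMM-scaled; grey flox/WT, red flox/flox; bar, mean with SD, n = 4). Mrpl49 is far higher in proBpreB than in later cells, and the 2 highest Mrpl54 values after the proBpreB stage, 87.5 and 87.2 CPM, belong to flox/flox replicate 2. The flox/flox mean of Mrpl43 is below that of flox/WT in proBpreB cells and above it in immature cells, where the ranges overlap and the difference is not called.

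Over the 3 genotype comparisons 18 members (23.4%) were called at least once, against 31.6% of all genes tested, and 44 of 77 (57.1%) had a change below 0 in all 3, against 19.6%. Both counts are given with all libraries only. They include the proBpreB comparison, where no lower call was left without the proBpreB flox/WT libraries that stood apart. How many of the 44 would then stay below 0 was not counted. In no comparison of genotype or stage, nor in the tests of differences, were 18 members called (23.4%, against 16.7% of all genes), among them Mrpl3, Mrpl15, Mrps2, Mrps12, the decoding-centre protein, and Mrps30.

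The members' partners in mitochondrial translation were counted in the same way. Of 6 mitochondrial ribosomal proteins with other symbols, Ptcd3, Chchd1 and Ict1 were lower and Gadd45gip1 higher in mature than in proBpreB flox/WT cells; without proBpreB flox/WT replicates 3 and 4 Ptcd3 and Gadd45gip1 alone of these passed. Ict1, a peptidyl-tRNA hydrolase built into the large subunit, was also lower in flox/flox immature (-0.50, SE 0.13) and mature cells (-0.40, SE 0.13). Of 20 mitochondrial aminoacyl-tRNA synthetase and amidotransferase genes, 7 were lower (35%) and 2 higher (10%) in flox/flox immature cells, against 10.5% and 10.2% of all genes, among them Gatb (-0.77, SE 0.15) and Iars2 (-0.59, SE 0.11), and 5 were lower (25%) and 1 higher (5%) in mature cells, against 6.62% and 9.69%. Of 22 ribosome assembly factors 1 was lower in each of proBpreB and immature flox/flox cells, Mpv17l2 (-0.63, SE 0.18) and Noa1 (-0.57, SE 0.15), and 2 were lower and 1 higher in mature cells. Over all genes 2.75% were lower in proBpreB, 10.5% in immature and 6.62% in mature flox/flox cells, and 9.69% were higher in mature ones. The call of Mpv17l2 ended without proBpreB flox/WT replicates 3 and 4. Of 16 genes listed as translation factors none was called in proBpreB or immature cells by edgeR, with 0 and 2 at an unadjusted p below 0.05. In mature flox/flox cells 3 were lower, Mrrf, Gfm2 and Oxa1l, of which Oxa1l is not itself a translation factor. Over all genes 6.13% were called in proBpreB and 20.7% in immature cells, and 6.62% were lower in mature flox/flox cells. Among nuclear subunits of oxidative phosphorylation, 11 of 35 were lower (31.4%) and 3 higher (8.57%) in mature than in proBpreB flox/WT cells, against 29.6% and 29.2% of all genes. Without replicates 3 and 4, 5 were lower and 2 higher, and the shares of all genes in that reduced fit are not given here.

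Cytosolic ribosomal proteins took another course than the mitochondrial ones. In mature against proBpreB flox/WT cells 72 of 82 tested were higher (87.8%) and 3 lower (median 0.82), where 37 of 77 mitochondrial ones were lower and 29.2% of all genes were higher and 29.6% lower. Without proBpreB flox/WT replicates 3 and 4, 76 cytosolic ones were higher and 3 lower (median 1.06), and 18 mitochondrial ones were lower and 5 higher. The shares of all genes in that reduced fit are not given here. In the genotype comparison of mature cells 55 of 82 cytosolic members were lower (67.1%, median -0.51), led by Rpl4 (-0.78, SE 0.10), against 10 of 77 mitochondrial members (13.0%, median -0.14) and 6.62% of all genes. Proliferation genes were lower in mature than in proBpreB flox/WT cells for 25 of 25 (median -3.45), and for 25 of 25 without those libraries (median -3.51). These counts are set side by side without a test of the difference between lists.

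**Figure D5:**
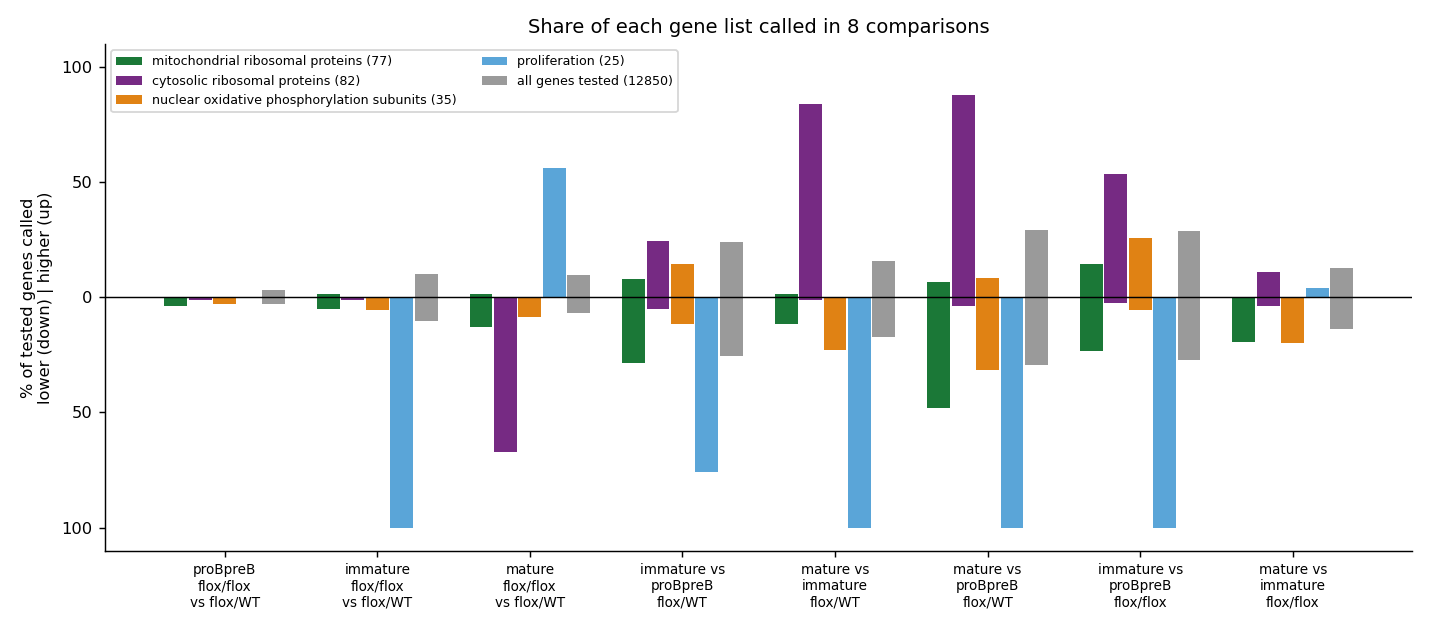
Percent of tested genes called higher (up) and lower (down) by edgeR in 8 comparisons, for the 77 mitochondrial ribosomal protein genes (green), 82 cytosolic ribosomal protein genes (purple), 35 oxidative phosphorylation genes (orange), 25 proliferation genes (light blue) and all 12850 genes tested (grey). In the genotype comparisons the green bars reach at most 13.0% lower, in mature cells, and they reach 48.1% lower between mature and proBpreB flox/WT cells.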

How the data were processed

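RNA of sorted bone marrow B cells was extracted with a low-cell-number kit and made into libraries with a low-input kit, per the labels' protocols. The deposited table holds raw gene counts from the authors, 1 column per library. CASAVA, FastQC, Trim Galore, HISAT2, featureCounts, DESeq2 and the mm10 build are named per the submitters' processing notes, with versions, annotation and strandedness not given in the sources used here. The deposited table of normalized counts was not used.

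Counts were tested with edgeR 4.0.16 (R 4.3.3; TMM, genes kept by filterByExpr, all 24 libraries and 6 groups in 1 robust quasi-likelihood fit, 18 residual degrees of freedom, 12850 genes), and p-values were adjusted by Benjamini-Hochberg over all genes of each of 11 comparisons (3 of genotype, 5 of stage, 3 of differences between genotype effects), with a threshold of 0.05. CPM use TMM-scaled library sizes. Log2 changes are edgeR's, and SEs were derived from the same fit. The members and lists were chosen with earlier results of these data known. Named were, per comparison, members past the threshold (in genotype comparisons at most 12 in each direction, by adjusted p; in stage comparisons at most 8 in each direction, by size; in differences between genotype effects at most 6), the 3 highest and 3 lowest per length, Mrps36, Mrps18a, Mrps30, members with other symbols, and at most 3 genes of each other list; Mrps18b and Mrps18c were set beside Mrps18a after their values were seen, as were members named only as called in both genotypes or in none. Gene positions and lengths come from GENCODE M21 (GRCm38), and all 77 symbols matched. Exon bases shared with other genes were counted there: 20 members share some, and 12 at least 10%. RefSeq lists pseudogenes of Mrpl23, Mrpl27, Mrpl48 and Mrps36, whose reads could be split. Alternatives were RLE factors, DESeq2 1.42.0, limma 3.58.1 with voom and mouse as a random block, no filter, 10 CPM or more in 4 libraries, a fit of just the compared groups, a replicate block and the removal of each library; library totals as scaling and the removal of proBpreB flox/WT replicates 3 and 4 were added after seeing the data. The scripts were tested on simulated data.

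The 3 populations of each mouse share its host number in the labels, so the stages are paired by mouse, whereas equal numbers in the 2 genotypes are different mice. Over 5000 genes, libraries of 1 mouse deviated from their group means with correlations of -0.284 to 0.372, above 0.1 in 16 of 24 pairs. No 2 libraries of a group agreed within sampling noise (lowest chi-square per degree of freedom, 6.05).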

Additional observations from a re-analysis of the deposited data

Results flagged for a closer look

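Within-group values were examined in 162 groups of 4 libraries, and 4 held a library far from the other 3, by the share of the group's range that its gap takes. Chance gives about 1 in 20 such groups. The summed level of all members in mature flox/flox cells had replicate 2 apart, at 3789 CPM against 3105 to 3206 CPM (gap 0.853 of the range). Mrpl16 was likewise highest in replicate 2 of mature flox/flox cells, at 39.1 CPM against 31.3, 29.7 and 29.9 CPM (0.833). Mrpl4 was highest in replicate 2 of mature flox/WT cells, at 103.1 CPM against 88.4, 86.5 and 86.8 CPM (0.884). Mrpl28 was lowest in replicate 3 of immature flox/flox cells, at 79.6 CPM against 92.9, 94.2 and 91.8 CPM (0.840).

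With all libraries, the genotype difference of 3 members differed between populations by edgeR's test of the difference itself. That of Mrpl43 was 0.65 higher (log2) in immature than in proBpreB cells and changed by -0.56 from immature to mature cells. That of Mrpl57 was 0.75 higher in immature than in proBpreB cells, and that of Mrpl11 changed by -0.68 from proBpreB to mature cells.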

How the results depend on the processing

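Removing proBpreB flox/WT replicates 3 and 4 left 1 member called in the proBpreB genotype comparison, 11 and 23 in the comparisons of immature and mature with proBpreB flox/WT cells, and 0 in the difference of genotype effects between immature and proBpreB cells. With library totals 13 members were called between genotypes in immature cells, 43 and 46 between immature and proBpreB cells of flox/WT and flox/flox mice, 22 between mature and immature flox/WT cells, and 0 in both differences that involve mature cells. The shares of all genes called with library totals are not given beside these counts. The summed levels became 4995 and 4422 CPM in proBpreB flox/WT and flox/flox, 3531 CPM in immature flox/flox and 3325 CPM in mature flox/WT cells, and the change of Mrpl4 from proBpreB to mature flox/WT cells turned to -0.028. DESeq2 called 6 members between genotypes in proBpreB, 8 in immature cells and 2 in the difference between mature and immature cells, as did limma-voom (2) and the filter of 10 CPM (2). The fit of only the groups compared gave 5 between genotypes in mature cells, 4 in the difference between immature and proBpreB and 0 in that between mature and proBpreB cells, and with no filter both differences that involve mature cells had 0. In the 250 bases before the start alone the ETS letters stood in 23.5% and the YY1 letters in 5.88% of member promoters, against 7.05% and 1.59% of all promoters. The cause of these shifts was not tested, except that fewer libraries and fewer genes enter the reduced fits.

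Leaving out 1 library at a time gave 1 to 9 called members between genotypes in proBpreB, 4 to 7 in immature and 6 to 15 in mature cells; 17 to 29, 6 to 11 and 32 to 41 for immature against proBpreB, mature against immature and mature against proBpreB in flox/WT; 24 to 28 and 11 to 19 for the first 2 of these in flox/flox mice; and 1 to 6, 0 to 2 and 0 to 1 for the differences of immature against proBpreB, mature against immature and mature against proBpreB. With the replicate block the counts were 3, 5 and 12 between genotypes, 29, 14 and 42 between stages in flox/WT, 29 and 18 in flox/flox mice and 2, 1 and 1 for the differences; this block, which is the mouse for stages and differences and only a shared number between genotypes, moved no count by over 1.5 times. Of 1393 values of 83 named gene results under the alternatives, 1236 kept direction and side of the threshold, 156 lost the call and 1 turned; 43 gene results held under all of them. Over all genes, the counts moved by over 1.5 times to 493 without proBpreB flox/WT replicate 4 and 440 without replicates 3 and 4 (788 with all, between genotypes in proBpreB), to 1296 with mature libraries only (2096), to 864 in the difference between immature and proBpreB cells without replicates 3 and 4 (1395) and to 599 by DESeq2 in that between mature and proBpreB cells (393).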
